A study of Mus musculus with 12 samples.

Results

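Transcripts of 35 named genes of cholesterol synthesis, fatty acid synthesis and the liver X receptor (LXR) response were followed in 3 mouse cell lines with and without SX-682, an inhibitor of the chemokine receptors CXCR1 and CXCR2. The genes were chosen by name and role, with earlier results of these data known. All 35 of them were present among the 34513 genes of the count table. All passed the filter on low counts that left 18338 genes for testing. RNA sequencing had been carried out on 12 libraries in 6 groups of 2, namely MelanA, B16F0 and B16F10 cells, each without treatment and with SX-682. MelanA is a nontumorigenic mouse line, and B16F0 and B16F10 are mouse melanoma lines. No genetic change, dose or duration of treatment is attached to the cultures in the labels, the controls are labelled as having no treatment, and whether they received vehicle is not given. Each line stands for itself alone, and whether the 2 libraries of a group came from separate cultures is not stated, so that p-values measure the spread between these libraries, which may be technical.

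Library totals lay between 48876982 and 85322092 counts, and a floor of 3 counts corresponded to 0.033 to 0.062 counts per 1000000 (CPM). For all 6 groups, both libraries had their own replicate as the nearest library. The labelled cell types were checked against marker genes: 8 melanocyte markers summed to 1351 to 1382 CPM in untreated MelanA, to 19270 to 19370 CPM in untreated B16F0 and to 25120 to 25150 CPM in untreated B16F10. In MelanA the pigment genes Pmel and Tyr were low, at group means of 8.11 and 0.826 CPM without treatment. Tyrp1, Dct, Mlana, Mitf and Slc45a2 were also lower in untreated MelanA than in both untreated B16 lines. Sox10 went the other way, at group means of 670 CPM in untreated MelanA, 453 CPM in B16F0 and 586 CPM in B16F10. With SX-682 the sum was 1353 to 1361 CPM in MelanA, 16210 to 16420 CPM in B16F0 and 15250 to 15500 CPM in B16F10. The 5 fibroblast markers summed to 60.6 to 60.9 CPM in untreated MelanA, 15.9 to 16.6 CPM in untreated B16F0 and 8.42 to 9.72 CPM in untreated B16F10. Summed keratinocyte, immune, endothelial and adipocyte markers did not exceed 3.49, 7.19, 2.24 and 0.561 CPM in any library. The part of these differences in the results given here was not tested.

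Cells make cholesterol from acetyl-CoA, first through the mevalonate pathway to farnesyl units and squalene, and then through a series of sterol intermediates. Genes of the route are switched on by sterol regulatory element-binding proteins (SREBPs), which are held in the endoplasmic reticulum by INSIG proteins and escorted by SCAP to the Golgi when sterols are scarce. SREBP-2 mainly serves cholesterol genes and SREBP-1 mainly fatty acid genes, whereas the LXRs are activated by oxysterols and raise cholesterol efflux through the transporters ABCA1 and ABCG1. MYLIP, also an LXR target, promotes degradation of lipoprotein receptors.

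Without treatment, most cholesterol genes stood higher in the melanoma lines than in MelanA. Of the 17 enzymes of the mevalonate and squalene-to-cholesterol steps, 16 were higher in B16F0, with a median log2 fold change over the 17 of 1.20, and 16 were higher and 1, Pmvk, was lower in B16F10, with a median of 0.68. Over all genes tested the medians were -0.06 and -0.10. Calls were made with the quasi-likelihood test of edgeR at an adjusted p under 0.05. Of all 35 members, 24 were higher and 5 lower in B16F0 than in MelanA, where 35.3% and 40.6% of all genes tested were called, and 24 were higher and 9 lower in B16F10, where 33.4% and 40.8% were called. The median of all genes moved with the scaling, to -0.15 and -0.29 when total counts alone were used, and changes between lines are read relative to it.

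**Figure D1:**
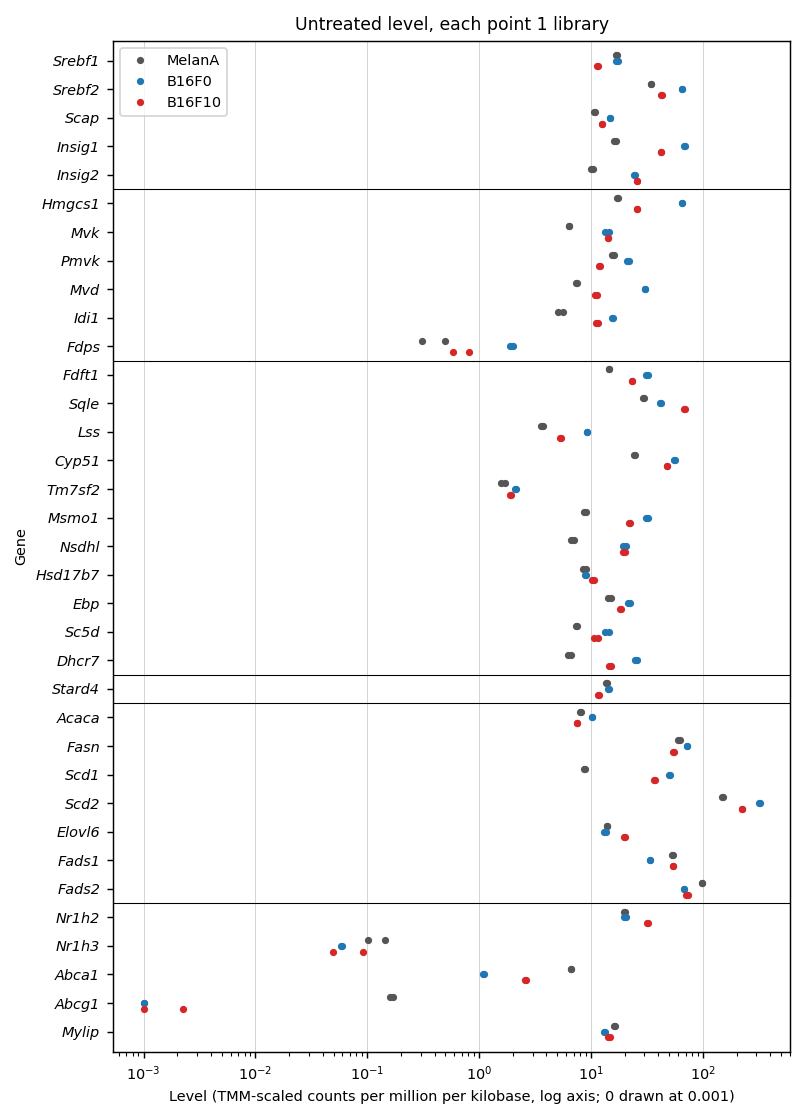
Untreated level of each member in TMM-scaled CPM per kilobase on a log axis, with each point 1 library, colours for the 3 lines and black lines between roles (SREBP regulators, mevalonate pathway, squalene to cholesterol, sterol transfer, fatty acids, LXR). Scd2 is at the top in every line, at means of 149.9 in MelanA, 319 in B16F0 and 224 in B16F10, and most enzyme points of the B16 lines lie to the right of those of MelanA.

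On the per-length scale (CPM per kilobase), levels of the members covered a wide range. Scd2, a stearoyl-CoA desaturase that places the first double bond in fatty acids, was the highest in all 3 lines, with means of 149.9 in MelanA, 319 in B16F0 and 224 in B16F10. Next in MelanA were Fads2 at 97.6 and Fasn at 60.9, in B16F0 Fasn at 72.2 and Insig1 at 68.4, and in B16F10 Fads2 at 72.0 and Sqle at 67.9. In B16F0 the neighbours Insig1 and Fads2 at 68.0 were apart by little, and the order of such neighbours was not tested. At the other end stood Nr1h3 and Abcg1 in all 3 lines. Next lowest was Fdps in MelanA and B16F10, and in B16F0 Abca1 at 1.09, below Fdps at 1.94. Fdps, which encodes the synthase of the farnesyl units used for squalene, had 113 to 593 counts per library. Of its annotated exonic bases, 26.7% are shared with Gm43738 on the same strand, so that its values are uncertain.

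Scd1, the paralogue of Scd2, set the lines apart most widely among the members higher in the B16 lines. It was at 42.5 and 43.3 CPM in untreated MelanA, 244 and 247 CPM in B16F0, and 182 and 179.8 CPM in B16F10. The log2 fold change against MelanA was 2.52 ± 0.029 (SE) in B16F0 and 2.08 ± 0.030 in B16F10, and no values overlapped. Insig1, whose product retains SREBPs in the endoplasmic reticulum and which is itself an SREBP target, was at 52.1 and 49.3 CPM in MelanA, 213 and 210.0 CPM in B16F0, and 130.3 and 131 CPM in B16F10. Its log2 fold changes were 2.06 ± 0.037 and 1.36 ± 0.037, and for the related Insig2 they were 1.27 and 1.34. Both retention genes were thus well above MelanA in both melanoma lines.

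Among enzymes, members called at an absolute log2 fold change of 1 or more are named. In B16F0 these were Fdps at 2.26, Mvd at 2.04, Dhcr7 at 1.98, Hmgcs1 at 1.91, Msmo1 at 1.83, Nsdhl at 1.55, Idi1 at 1.54, Lss at 1.34, Cyp51 at 1.20, and Mvk and Fdft1 at 1.13. In B16F10 they were Nsdhl at 1.53, Msmo1 at 1.31, Sqle and Dhcr7 at 1.20, Mvk at 1.15 and Idi1 at 1.09. Scd2 passed the same limit in B16F0 at 1.09. The remaining enzyme not called in B16F0 was Hsd17b7, at 0.05.

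The transporter Abca1, which exports cholesterol to lipid-poor apolipoprotein particles, went the other way. It was at 69.0 and 68.5 CPM in untreated MelanA, 11.5 and 11.2 CPM in B16F0 and 26.7 and 27.2 CPM in B16F10, with log2 fold changes of -2.60 ± 0.047 and -1.35 ± 0.043. Abcg1, which exports cholesterol to larger lipoproteins, was at 1.17 and 1.23 CPM in MelanA. It had 0 counts in both B16F0 libraries, and set against a floor of 3 counts per library its level was at least 28.4-fold higher in MelanA. In untreated B16F10 the libraries held 1 and 0 counts, and the ratio of MelanA to B16F10 was 149, with an exact 95% interval of 26.5 to 5930 for counting error alone. Both efflux genes were thus lower in the melanoma lines.

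Between the melanoma lines, most members were lower in B16F10 than in B16F0. Of the 35 members, 8 were higher and 21 lower, where 30.8% and 31.2% of all genes were called. Of the 17 enzymes, 12 were lower and 2, Sqle and Hsd17b7, were higher, with a median of -0.45 against -0.00165 over all genes. The log2 fold changes of 1 or more were -1.47 for Mvd, -1.47 for Fdps, -1.33 for Hmgcs1 and 1.25 for Abca1. All 4 placed B16F10 between the other lines.

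With SX-682, most cholesterol transcripts fell in the melanoma lines, whereas in MelanA they moved in both directions. Of the 35 members, 13 rose and 15 fell in MelanA, where 23.4% of all genes tested were higher and 24.7% lower. In B16F0, 6 rose and 20 fell, against 25.1% and 25% of all genes, and in B16F10, 6 rose and 22 fell, against 25.5% and 25.3%. The median log2 fold change of the members was 0.01 in MelanA, -0.31 in B16F0 and -0.43 in B16F10, whereas that of all genes tested was 0 in each line. In all 3 lines 11 members fell, 31.4% of the members against 11.7% of all genes, namely Hmgcs1, Idi1, Sqle, Msmo1, Hsd17b7, Sc5d, Dhcr7, Stard4, Scd2, Elovl6 and Fads2. Only Srebf1 and Tm7sf2 rose in all 3 lines, 5.71% of the members against 11.3% of all genes. Fads1, Nr1h3 and Abcg1 passed this test in none of the lines, although some alternatives called them, as given with each gene. Of all 18338 genes tested, 5388 passed in none. In different lines, 9 of the 35 members were called in opposite directions, against 1758 of the 18338 genes. The call of Sc5d in MelanA, at -0.12 with an edgeR adjusted p of 0.042, was lost in DESeq2 at an adjusted p of 0.095, under other settings and without any 1 of the 4 MelanA libraries (0.078 to 0.18).

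**Figure D2:**
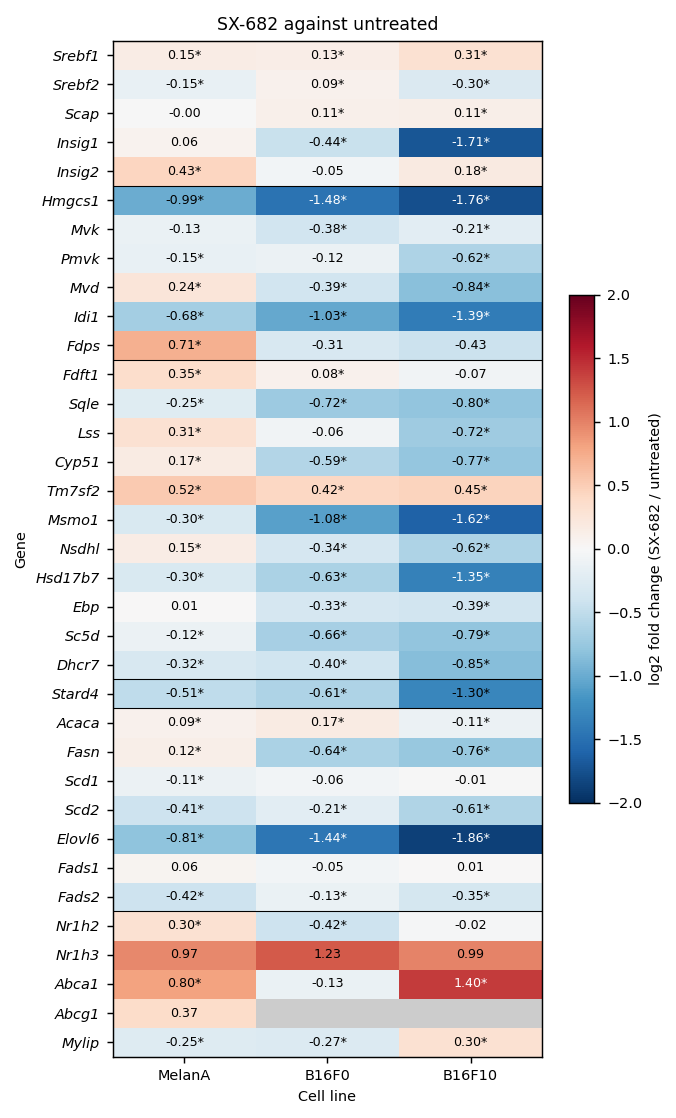
Log2 fold change of SX-682 against untreated for the 35 members in each line, with red higher and blue lower with SX-682, an asterisk for an edgeR adjusted p under 0.05, black lines between roles and grey for Abcg1 in the B16 lines, where no fold is given. The darkest blue cells are Elovl6, Hmgcs1, Insig1 and Msmo1 in B16F10, at -1.86, -1.76, -1.71 and -1.62.

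The regulators of the pathway did not move together. Srebf1, which encodes SREBP-1, was at 93.4 and 96.9 CPM in untreated MelanA and 103 and 108 CPM with SX-682, at 98.0 and 94.7 against 106 and 106 CPM in B16F0, and at 63.2 and 65.3 against 81 and 78.5 CPM in B16F10. It rose in each line, by a log2 fold change of 0.15, 0.13 and 0.31. Srebf2, which encodes SREBP-2, was at 247 and 248 against 225 and 220.3 CPM in MelanA, 469 and 465 against 502 and 492 CPM in B16F0, and 312 and 304 against 251 and 251 CPM in B16F10. It fell in MelanA by 0.15 and in B16F10 by 0.30 on the log2 scale and rose in B16F0 by 0.09. Scap was 0.11 higher in both B16 lines, in B16F0 a call that depended on the second untreated library (0.095 without it). In MelanA, at -0.00140, Scap did not pass the test and its sign depended on the scaling. Of the exonic bases of Scap, 13.2% lie opposite 5830462I19Rik, and the strand setting of the counting is not given.

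Of the 5 regulators, Insig1 differed most between lines in its change. With SX-682 it was at 53.1 and 53.0 CPM in MelanA, 159 and 153 CPM in B16F0, and 37.7 and 41.9 CPM in B16F10, so that the treated B16F10 libraries fell below both MelanA groups. The log2 fold change was 0.06 ± 0.039 in MelanA (edgeR adjusted p = 0.18), -0.44 ± 0.035 in B16F0 and -1.71 ± 0.040 in B16F10, the last of these a level 0.305 times that without treatment. Without the first untreated MelanA library, the value in MelanA was 0.11 with an adjusted p of 0.038. Insig2, the other retention gene, rose in MelanA by 0.43 and in B16F10 by 0.18 and was at -0.05 in B16F0, where it did not pass the test.

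Enzymes of the mevalonate pathway differed among themselves. Hmgcs1, the cytosolic HMG-CoA synthase at the entrance of the pathway, was at 80.4 and 78.2 CPM in untreated MelanA and 40.2 and 39.7 CPM with SX-682. In B16F0 it was at 300.2 and 297 against 111 and 102 CPM, and in B16F10 at 117 and 119 against 34.2 and 35.8 CPM. No treated value overlapped an untreated value of the same line, and the log2 fold changes were -0.99 ± 0.037, -1.48 ± 0.034 and -1.76 ± 0.039. Idi1, the isomerase that makes the reactive isoprenoid unit, was at 19.6 and 17.7 against 11.5 and 11.8 CPM in MelanA, 55.0 and 53.9 against 27.5 and 25.7 CPM in B16F0, and 39.1 and 40.6 against 13.9 and 16.5 CPM in B16F10. Its log2 fold changes were -0.68, -1.03 and -1.39. Part of the exonic bases of both genes, 12.1% for Hmgcs1 and 9.22% for Idi1, lies opposite another annotated gene, and since the strand setting of the counting is not given, reads of the partners cannot be told apart there.

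The kinases and the decarboxylase of the same pathway changed less. Mvk, mevalonate kinase, fell by 0.38 in B16F0 and by 0.21 in B16F10 on the log2 scale and was at -0.13 in MelanA (edgeR adjusted p = 0.069). Pmvk, phosphomevalonate kinase, fell by 0.15 in MelanA and by 0.62 in B16F10 and was at -0.12 in B16F0, which did not pass. On total counts alone Pmvk was called lower in B16F0, at -0.13 (edgeR adjusted p = 0.046). In MelanA its call was lost in DESeq2, at an adjusted p of 0.058, and without the first untreated library (0.18) or either treated library (0.064 and 0.19). Mvd, mevalonate diphosphate decarboxylase, rose in MelanA by 0.24 and fell in B16F0 by 0.39 and in B16F10 by 0.84. The low-count Fdps rose in MelanA by 0.71 ± 0.18, a call lost without the first untreated MelanA library (adjusted p = 0.080), and was at -0.31 and -0.43 in the B16 lines without passing. With only the groups compared it was called lower in B16F0 (adjusted p = 0.011) and B16F10 (0.046), and in B16F10 also with at least 10 counts in every library (0.047), with the replicate block (0.035) and, at -0.66, without the second untreated library (0.013).

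Of the 11 enzymes from squalene to cholesterol, 5 rose and 5 fell in MelanA, 2 rose and 8 fell in B16F0, and 1 rose and 9 fell in B16F10. The shares of all genes that rose and fell were 23.4% and 24.7%, 25.1% and 25%, and 25.5% and 25.3% in these lines. Sqle, squalene epoxidase, the first oxygen-requiring step, was at 163 and 165 against 137 and 139 CPM in MelanA, 233 and 231 against 140.2 and 140.2 CPM in B16F0, and 372 and 380.2 against 219 and 215 CPM in B16F10. Its log2 fold changes were -0.25, -0.72 and -0.80. Msmo1, the C4-methylsterol oxidase, was at 55.3 and 53.7 against 44.6 and 44.0 CPM in MelanA, 189.8 and 197 against 93.9 and 88.3 CPM in B16F0, and 137 and 134 against 43.2 and 44.5 CPM in B16F10. It fell by 0.30, 1.08 and 1.62 on the log2 scale, and its treated B16F10 level lay beside that of treated MelanA.

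Hsd17b7, a ketosteroid reductase acting on C4-demethylated sterols, was at 45.6 and 42.9 against 35.4 and 36.4 CPM in MelanA, 46.1 and 45.2 against 30.8 and 28.2 CPM in B16F0, and 54.6 and 52.5 against 20.8 and 21.2 CPM in B16F10. This enzyme, whose untreated level was not called different between MelanA and B16F0, fell by 0.30, 0.63 and 1.35 on the log2 scale. Dhcr7, which performs the last reduction to cholesterol, fell by 0.32, 0.40 and 0.85, and Sc5d, the lathosterol desaturase, by 0.12, 0.66 and 0.79. Cyp51, the lanosterol demethylase, rose by 0.17 in MelanA and fell by 0.59 and 0.77 in B16F0 and B16F10, and Nsdhl, a sterol dehydrogenase, rose by 0.15 and fell by 0.34 and 0.62. The MelanA call of Nsdhl was lost without the first untreated library (adjusted p = 0.17) or the second treated library (0.21). Lss, lanosterol synthase, rose by 0.31 in MelanA, was at -0.06 in B16F0 without passing, and fell by 0.72 in B16F10. Ebp, the sterol isomerase, fell by 0.33 and 0.39 in the B16 lines and was at 0.01 in MelanA.

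The exceptions to the fall in the B16 lines included Tm7sf2 and Fdft1. Tm7sf2, a sterol C14 reductase that shares 12.1% of its exonic bases with Vps51 on the same strand, rose by 0.52, 0.42 and 0.45. Fdft1, squalene synthase, rose by 0.35 in MelanA and by 0.08 in B16F0 and was at -0.07 in B16F10 (edgeR adjusted p = 0.062). In B16F0 the call of Fdft1, at an adjusted p of 0.026, was lost on total counts alone at 0.070, without the filter at 0.067, without the second untreated library at 0.26 and without the second treated library at 0.15. In B16F10 it was called lower with DESeq2 scaling in edgeR (0.044), with at least 10 counts in every library (0.030) and with only the groups compared (0.032). Of its exonic bases, 18.3% lie opposite Ctsb.

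Stard4, which carries cholesterol between membranes and is itself sterol-regulated, was at 75.3 and 77.2 against 55.4 and 51.7 CPM in MelanA, 80.3 and 80.0 against 53.3 and 51.3 CPM in B16F0, and 65.7 and 64.8 against 25.9 and 27.1 CPM in B16F10. Its untreated libraries lay between 64.8 and 80.3 CPM in the 3 lines, and the falls were 0.51, 0.61 and 1.30 on the log2 scale. The deepest fall was again in B16F10.

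**Figure D3:**
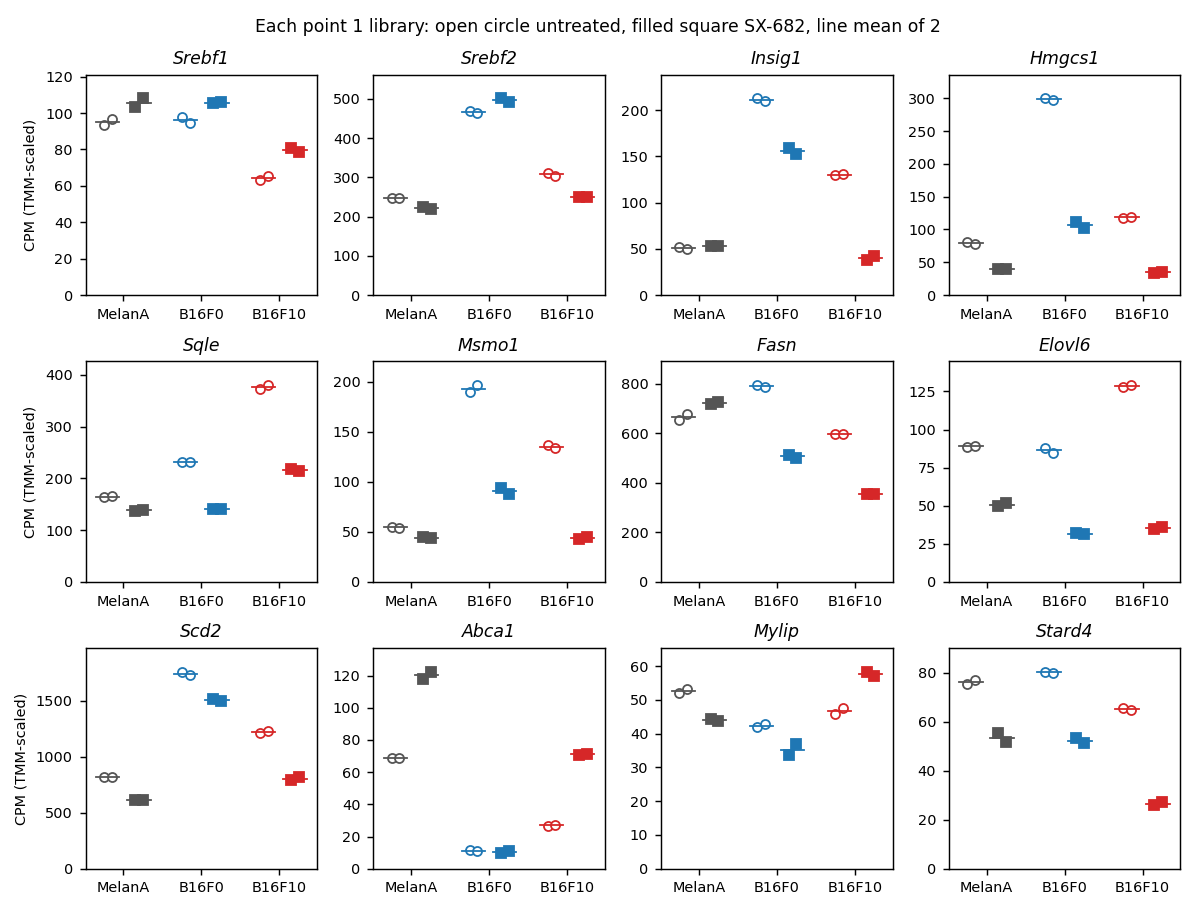
TMM-scaled CPM in each library for 12 members, with open circles for untreated, filled squares for SX-682, short lines for the mean of 2 libraries and every axis starting at 0. Replicates lie close together, and Hmgcs1, Msmo1 and Insig1 in B16F10 fall from 117 to 137 CPM untreated to 34.2 to 44.5 CPM with SX-682.

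Promoter sequence is shown for the 6 members that passed in the same direction in all 3 lines, held at least 1 of 3 searched motifs and had the largest smallest change, so that genes that fell can be set beside 1 that rose, Tm7sf2. Sequences are those of RefSeq on GRCm38.p6, the build of the files, and run from 250 bases before to 50 bases after the annotated start of a transcript. Of the 35 members, 27 had an entry. Capitals mark matches on either strand to the sterol regulatory element TCACNCCAC, to the NF-Y box CCAAT and to the E-box CACGTG, which do not overlap one another in these windows. They are Hmgcs1 at chr13:119690101-119690400 on the plus strand, Idi1 at chr13:8885356-8885655 on the plus strand, Tm7sf2 at chr19:6067801-6068100 on the minus strand, Dhcr7 at chr7:143829964-143830263 on the plus strand, Hsd17b7 at chr1:169969156-169969455 on the minus strand and Msmo1 at chr8:64733529-64733828 on the minus strand.
Hmgcs1: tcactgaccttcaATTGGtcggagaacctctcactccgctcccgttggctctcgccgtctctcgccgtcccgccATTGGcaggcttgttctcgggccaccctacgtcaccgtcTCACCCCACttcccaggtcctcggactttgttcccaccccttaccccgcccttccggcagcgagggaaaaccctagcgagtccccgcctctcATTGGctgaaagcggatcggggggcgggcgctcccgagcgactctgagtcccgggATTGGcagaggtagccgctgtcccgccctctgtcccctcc
Idi1: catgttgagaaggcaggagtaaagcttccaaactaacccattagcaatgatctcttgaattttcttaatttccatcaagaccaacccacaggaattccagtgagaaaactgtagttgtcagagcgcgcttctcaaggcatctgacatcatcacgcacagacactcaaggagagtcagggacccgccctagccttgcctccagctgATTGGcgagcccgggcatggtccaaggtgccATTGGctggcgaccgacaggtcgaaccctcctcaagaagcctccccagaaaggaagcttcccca
Tm7sf2: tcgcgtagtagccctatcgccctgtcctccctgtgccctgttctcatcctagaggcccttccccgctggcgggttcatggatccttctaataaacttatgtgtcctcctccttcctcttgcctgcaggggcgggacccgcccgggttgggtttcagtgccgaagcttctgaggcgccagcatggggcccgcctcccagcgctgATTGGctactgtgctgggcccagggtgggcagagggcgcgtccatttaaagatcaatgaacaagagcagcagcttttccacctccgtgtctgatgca
Dhcr7: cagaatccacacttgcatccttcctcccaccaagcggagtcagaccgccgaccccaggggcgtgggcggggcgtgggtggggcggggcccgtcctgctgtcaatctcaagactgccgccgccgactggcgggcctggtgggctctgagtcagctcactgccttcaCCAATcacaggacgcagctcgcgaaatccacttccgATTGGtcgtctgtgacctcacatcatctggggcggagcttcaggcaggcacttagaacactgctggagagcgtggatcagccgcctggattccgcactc
Hsd17b7: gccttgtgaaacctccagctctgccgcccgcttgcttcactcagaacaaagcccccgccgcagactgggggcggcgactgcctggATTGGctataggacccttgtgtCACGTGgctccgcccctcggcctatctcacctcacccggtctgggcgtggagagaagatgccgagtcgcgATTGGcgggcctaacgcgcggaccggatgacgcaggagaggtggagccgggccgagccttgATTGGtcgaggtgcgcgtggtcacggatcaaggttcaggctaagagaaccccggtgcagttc
Msmo1: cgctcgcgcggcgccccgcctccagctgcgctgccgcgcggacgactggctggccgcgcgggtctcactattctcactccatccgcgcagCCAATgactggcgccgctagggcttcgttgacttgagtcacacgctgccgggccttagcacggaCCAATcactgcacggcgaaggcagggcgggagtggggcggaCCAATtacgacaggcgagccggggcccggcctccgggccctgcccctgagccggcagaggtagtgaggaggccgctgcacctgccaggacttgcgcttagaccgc

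NF-Y is a factor known to act beside SREBPs. Its box was found in 20 of the 27 member genes with an entry, or 74.1%, and in 41.1% of the 27025 genes with a promoter of this length. The E-box was found in 6 of the 27, or 22.2%, against 8.09% of all genes. The sterol regulatory element in the letters searched was found in 1 of the 27, Hmgcs1, against 1.44% of all genes. Hmgcs1 held 4 NF-Y boxes besides the sterol element, Msmo1 and Hsd17b7 held 3 each, Idi1 and Dhcr7 2 each, and Tm7sf2, which rose, held 1. Members that were not printed did not follow this order. Elovl6 and Fads2, which fell in all 3 lines, held no NF-Y box. Srebf1, which rose in all 3 lines, held it, as did Nsdhl and Fasn, which rose in MelanA. Whether the number of boxes goes with the change was not tested. A gene was counted when any of its entries held the motif, and the entry with the most matches is printed. For Dhcr7 this entry starts inside the gene, which runs from 143823145 to 143848410, and its other two entries, at the annotated start of the gene, held no NF-Y box. The Tm7sf2 window also lies inside its gene, which runs from 6062821 to 6068373 on the minus strand. The annotated start of that gene was not searched, so its number of boxes may not be comparable with those of the genes that fell. These are matches of letters only, and the absence of a match says nothing about a factor.

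Of the 7 genes of fatty acid synthesis and desaturation, 2 rose and 4 fell in MelanA, 1 rose and 4 fell in B16F0, and 5 fell in B16F10. The shares of all genes that rose and fell were 23.4% and 24.7%, 25.1% and 25%, and 25.5% and 25.3% in these lines. A departure of so few genes from these shares was not tested. Elovl6, the elongase of saturated 16-carbon chains, showed the largest fall of any member in B16F10. It was at 88.5 and 89.4 against 49.8 and 51.6 CPM in MelanA, 88.0 and 84.6 against 31.9 and 31.6 CPM in B16F0, and 128 and 129 against 34.8 and 35.7 CPM in B16F10. The log2 fold changes were -0.81 ± 0.035, -1.44 ± 0.039 and -1.86 ± 0.037. Although B16F10 began highest, treated libraries of both B16 lines ended below those of treated MelanA.

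Fasn, fatty acid synthase, was at 656 and 678 against 718 and 726 CPM in MelanA, 796 and 786 against 514 and 501 CPM in B16F0, and 598 and 599.6 against 354 and 356 CPM in B16F10. It thus rose in MelanA by 0.12 and fell in B16F0 by 0.64 and in B16F10 by 0.76 on the log2 scale. Acaca, the carboxylase that provides malonyl-CoA, rose by 0.09 in MelanA and by 0.17 in B16F0 and fell by 0.11 in B16F10, and its MelanA call was lost without the first untreated library (adjusted p = 0.063) or the second treated library (0.053).

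The desaturase paralogues behaved differently from each other. Scd1 with SX-682 was at 39.2 and 40.0 CPM in MelanA, 238 and 234 CPM in B16F0, and 182 and 178 CPM in B16F10. Its log2 fold changes were -0.11, -0.06 and -0.01, of which only that in MelanA passed. On total counts alone Scd1 was called lower in B16F0, at -0.073 (edgeR adjusted p = 0.026). Scd2 was at 816 and 822 against 618 and 616 CPM in MelanA, 1757 and 1726 against 1519 and 1495 CPM in B16F0, and 1214 and 1230 against 792 and 815 CPM in B16F10. It fell by 0.41, 0.21 and 0.61. Reads of such paralogues may be shared, and how the counting treated them is not given. Among the desaturases of polyunsaturated fatty acids, Fads2 fell by 0.42, 0.13 and 0.35, and Fads1 was at 0.06, -0.05 and 0.01 without passing. In MelanA, Fads1 was called higher in DESeq2 (adjusted p = 0.021), on total counts alone (0.013) and under 3 further settings, and also without the first treated library (0.043). In B16F0 it was called lower on total counts alone (0.024) and without the first treated library (0.035). The MelanA call of Scd1 was lost without the first treated library (adjusted p = 0.098).

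The LXR members changed in directions that depended on the line. Abca1 was at 69.0 and 68.5 against 118 and 122 CPM in MelanA and at 26.7 and 27.2 against 70.8 and 71.3 CPM in B16F10, and it rose by 0.80 ± 0.038 and 1.40 ± 0.044 on the log2 scale. In B16F0 it was at 11.5 and 11.2 against 9.90 and 10.95 CPM, a log2 fold change of -0.13 ± 0.062 (edgeR adjusted p = 0.090). Without the second treated B16F0 library this value was -0.19 with an adjusted p of 0.031. The increase in B16F10 was the largest among the members that passed in that line and placed the treated libraries beside those of untreated MelanA.

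Mylip was at 51.9 and 53.2 against 44.3 and 43.9 CPM in MelanA, 42.0 and 42.8 against 33.5 and 37.1 CPM in B16F0, and 45.8 and 47.7 against 58.3 and 57.0 CPM in B16F10. It fell by 0.25 and 0.27 in MelanA and B16F0 and rose by 0.30 in B16F10. Nr1h2, which encodes the widely expressed LXR-beta, rose by 0.30 in MelanA, fell by 0.42 in B16F0 and was at -0.02 in B16F10. Nr1h3, which encodes LXR-alpha, was close to the floor, with 8 to 51 counts per library. It was at 0.359 and 0.253 against 0.519 and 0.679 CPM in MelanA, 0.147 and 0.149 against 0.471 and 0.208 CPM in B16F0, and 0.232 and 0.1252 against 0.231 and 0.479 CPM in B16F10, and it passed in no line. Its call depended on single libraries: without the second treated B16F0 library its log2 fold change there was 1.66 with an adjusted p of 0.025. In MelanA it passed with only the groups compared, at an adjusted p of 0.037. Abcg1 was at 1.17 and 1.23 against 1.45 and 1.67 CPM in MelanA (edgeR adjusted p = 0.46), and with SX-682 it held 2 and 0 counts in B16F0 and 7 and 0 counts in B16F10, at which a change could not be measured. Without the second treated B16F10 library its adjusted p was 0.015, on the 7 counts of the other.

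Whether the response differed between lines was tested directly as a difference of log2 fold changes. The mean change of the B16 lines was lower than the change in MelanA for 23 members and higher for 3, where 17.1% and 18.7% of all genes were called lower and higher. Of the 17 cholesterol enzymes 15 were lower, with a median difference of -0.60 against 0.02 over all genes, and the other two, Mvk and Tm7sf2, did not pass. Insig1 differed by -1.14 ± 0.047, Msmo1 by -1.06 ± 0.045, Cyp51 by -0.85 ± 0.039, Elovl6 by -0.84 ± 0.044 and Fasn by -0.81 ± 0.027. The change was higher in the mean of the B16 lines for Mylip at 0.27, Fads2 at 0.18 and Scap at 0.11. The Mylip difference came from B16F10, where it changed by 0.30, against -0.27 in B16F0 and -0.25 in MelanA. For Scd2 the difference was 0.00 ± 0.024, a mean of unlike changes, since Scd2 fell less in B16F0 and more in B16F10 than in MelanA.

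The change in B16F10 was lower than that in B16F0 for 19 members and higher for 5, where 14.9% and 15.3% of all genes were called. Of the 17 enzymes 11 were lower, with a median difference of -0.27, and the others did not pass. Insig1 again led at -1.27 ± 0.053, followed by Hsd17b7 at -0.72, Stard4 at -0.68, Lss at -0.65, Msmo1 at -0.54 and Pmvk at -0.50. In the opposite direction stood Abca1 at 1.53 ± 0.076, Mylip at 0.57 and Nr1h2 at 0.40 of the LXR group, and the regulators Insig2 at 0.23 and Srebf1 at 0.18. Sqle differed by -0.07 ± 0.036 and did not pass.

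**Figure D4:**
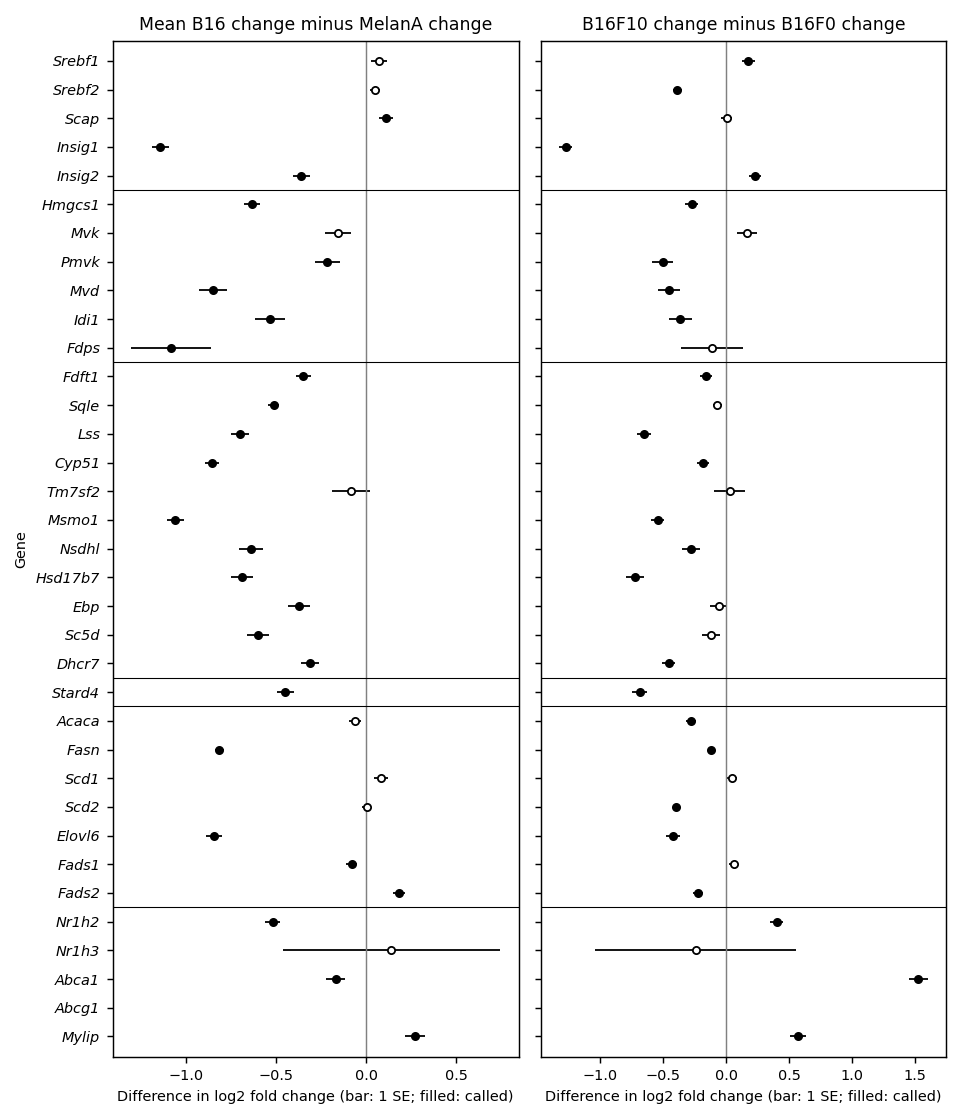
Difference in the SX-682 log2 fold change between lines for each member, with bars of 1 standard error, filled points for an edgeR adjusted p under 0.05 and Abcg1 left out. In the left panel the points of all 17 cholesterol synthesis enzymes lie left of 0, whereas Fads2 among the fatty acid genes lies right of it at 0.18, and in the right panel Insig1 lies furthest left at -1.27 and Abca1 furthest right at 1.53.

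The lines were also compared under treatment, a comparison chosen after the values had been seen. In treated B16F0, 22 members were higher and 9 lower than in treated MelanA, where 35.2% and 40.1% of all genes were called. In treated B16F10, 13 were higher and 14 lower, where 33.6% and 40.3% were called, and on total counts alone the split was 11 and 20. Of the 17 enzymes, 15 remained higher in treated B16F0, at a median of 0.89, whereas in treated B16F10, 6 were higher, 5 lower and 6 did not pass, at a median of -0.02. Msmo1 was at -0.02 ± 0.039 and Cyp51 at 0.02 ± 0.032 between treated B16F10 and treated MelanA, Hmgcs1 was lower by -0.19, and Mvk was higher by 1.07. Fasn and Stard4 were lower, at -1.02 and -1.01, and Scd1 stayed higher at 2.19. These comparisons use the same treated libraries as the responses above and are not independent of them.

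Another 82 genes of the same pathways were listed by role, also with earlier results of these data known, and 80 passed the filter. Of these, 32 rose and 27 fell in MelanA, 27 rose and 33 fell in B16F0, and 28 rose and 32 fell in B16F10. Of all genes tested, 23.4% rose and 24.7% fell in MelanA, 25.1% and 25% in B16F0, and 25.5% and 25.3% in B16F10, and the lists that follow stand beside the same shares. In all 3 lines 15 of the 80 rose and 16 fell, where 11.3% and 11.7% of all genes did. Of the 21 further SREBP pathway and processing genes, 5 rose and 10 fell in MelanA, 6 rose and 9 fell in B16F0, and 5 rose and 14 fell in B16F10. Of 24 tested of 25 further genes of fatty acid and lipid synthesis, 11 rose and 7 fell in MelanA, 9 rose and 12 fell in B16F0, and 9 rose and 11 fell in B16F10. Of 20 tested of 21 genes of sterol transport, storage and LXR partners, 10 rose and 5 fell in MelanA, 9 rose and 4 fell in B16F0, and 10 rose and 5 fell in B16F10. The genes named are the 4 in each direction that passed in all 3 lines with the largest smallest change. Acat2, the cytosolic thiolase that feeds the mevalonate pathway, fell by 0.37, 1.13 and 1.21 on the log2 scale. Pdss1, which builds the isoprenoid tail of ubiquinone, fell by 0.61, 0.75 and 0.74, Erlin2, which takes part in degradation of endoplasmic reticulum proteins, by 0.37, 0.45 and 0.70, and Elovl5, an elongase of polyunsaturated fatty acids, by 0.30, 0.49 and 0.61. Those that rose were Rxrb, a retinoid X receptor and partner of LXRs, at 0.67, 0.55 and 0.45, Cpt1c, a carnitine palmitoyltransferase family member, at 0.44, 0.70 and 0.54, the phospholipid transfer protein gene Pltp at 0.42, 0.38 and 0.45, and Dgat2, which makes triglycerides, at 0.36, 0.53 and 0.95. Of 15 fatty acid oxidation genes, 6 rose and 5 fell in MelanA, 3 rose and 8 fell in B16F0, and 4 rose and 2 fell in B16F10.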

How the data were processed

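Raw read counts per gene were deposited by the authors for 12 libraries, 2 per group, as 1 table. Their processing notes name cutadapt, STAR, DESeq2 and mm10. The counting program and its strand setting are not given in the sources used here. The members and lists were chosen with earlier results of these data known. All libraries were fitted together by group in edgeR 4.0.16 (R 4.3.3, quasi-likelihood test, TMM scaling, default prior count and low-count filter) and p-values were adjusted by Benjamini-Hochberg over all 18338 genes tested. The residual degrees of freedom were 6, and the prior degrees of freedom, from spread shared across genes, had a median of 21.9. Each standard error (SE) is the absolute log2 fold change over the square root of the F value of the quasi-likelihood test. CPM are TMM-scaled. An exact permutation test of 2 against 2 libraries cannot go below p = 0.333 and was not used. Named genes are all members for SX-682, those called at a log2 fold change of at least 1 between untreated lines and of at least 0.5 between responses. A few smaller values are given for contrast and were chosen after they were seen, as were those between treated lines. Alternatives were DESeq2 1.42.0, other scalings, filters and thresholds, the replicate number as a block, and leaving out each library. Scripts were tested on simulated data. Counts of 0 and intervals cover counting error only.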

Additional observations from a re-analysis of the deposited data

Results flagged for a closer look

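Between the mean of the B16 lines and MelanA, 26 of the 35 members differed in their SX-682 log2 fold change by the direct edgeR test of the difference. Those that differed by at least 0.5 were Insig1 at -1.14, Hmgcs1 at -0.63, Mvd at -0.85, Idi1 at -0.53, Fdps at -1.08, Sqle at -0.51, Lss at -0.70, Cyp51 at -0.85, Msmo1 at -1.06, Nsdhl at -0.64, Hsd17b7 at -0.69, Sc5d at -0.60, Fasn at -0.81, Elovl6 at -0.84 and Nr1h2 at -0.52. For all of them it was the SX-682 change, not the level, that was lower in the mean of the B16 lines. Between B16F10 and B16F0, 24 members differed, and those that differed by at least 0.5 were Insig1 at -1.27, Pmvk at -0.50, Lss at -0.65, Msmo1 at -0.54, Hsd17b7 at -0.72, Stard4 at -0.68, Abca1 at 1.53 and Mylip at 0.57. Groups of 2 libraries were too small for a search for single outlying libraries.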

How the results depend on the processing

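Of 179 log2 fold changes of named members, 175 kept their direction and call in DESeq2 and 175 under its scaling in edgeR, 171 on total counts alone, 174 without the low-count filter, 165 of those tested with at least 10 counts in every library, 156 of those given when only the groups compared were fitted, 175 at an adjusted p of 0.01 and 179 at a prior count of 2. The mean B16 change minus the MelanA change uses all libraries and has no separate fit. On total counts alone, 8 members in place of 5 were lower in untreated B16F0 than in MelanA. Under the limit of an absolute log2 fold change of 0.5, 132 of the 179 kept their direction and call, and 47 lost the call. Members higher and lower with SX-682 were then 3 and 4 in MelanA, 0 and 10 in B16F0, and 1 and 17 in B16F10. Untreated, 3 were lower in B16F10 than in MelanA, and 5 were higher and 11 lower than in B16F0. Between responses, 0 were higher and 15 lower for the mean of the B16 lines, and 2 and 6 for B16F10 against B16F0. Between treated B16F10 and MelanA, 6 were higher and 8 lower. For the member counts under these other settings no share of all genes was computed. They show only how the member counts moved, not a departure from all genes. In edgeR at an unadjusted p under 0.05, the counts of 0 became 1 (Nr1h3) and 0, and this limit was not run in DESeq2. Values near 0 that passed in no setting changed sign: Scap in MelanA was 0.00641 in DESeq2, 0.00642 with its scaling, 0.016 on total counts alone, 0.0072 without the filter, 0.00693 with at least 10 counts and 0.00443 with only its groups, Scd1 in B16F10 was 0.00625 on total counts alone, and Fads1 in B16F10 was -0.00184 without the filter. The cause was not tested.

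With each library left out in turn, ranges that crossed 0 were -0.0170 to 0.0337 for Scap and -0.0350 to 0.0704 for Ebp in MelanA, and -0.0308 to 0.00679 for Scd1 and -0.00484 to 0.0129 for Fads1 in B16F10. The fitted values of Abcg1, which rest on 0 to 7 counts and are no measure of a change, lay between 0 and 4.18 in the B16F0 comparison and between -2.45 and 5.07 in that of B16F10. Members called higher and lower with SX-682 ran from 11 to 14 and 12 to 14 in MelanA, 4 to 6 and 20 to 21 in B16F0, and 6 to 7 and 22 to 23 in B16F10. A lone library was assumed to vary like the other groups.

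Deviations of same-numbered libraries from their group means had correlations of 0.00108, 0.0222 and 0.00975 in MelanA, B16F0 and B16F10. These values show no strong shared shift. They cannot settle whether same-numbered libraries were paired, which the labels do not say. With the replicate block, no count moved by over 1.5 times, 22 against 23 members fell in B16F10, and 1 named member changed its call, Fdps in B16F10, at -0.42 with an edgeR adjusted p of 0.035. The lowest counts among the members were those of Abcg1, Nr1h3 and Fdps, and why they were low was not tested.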
